A study of Mus musculus with 12 samples.

Results

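The hypothalamus of diabetic mice that received curcumin was compared with that of diabetic mice that received the vehicle alone, across all genes of a table of read counts. The comparison uses 7 of the 12 libraries of the study: 3 from the curcumin group and 4 from the untreated diabetic group. All were bulk RNA-seq libraries of whole hypothalamus from male C57BL/6 mice. Both groups were made diabetic in the same way, with streptozotocin at 70 mg/kg on postnatal day 2 and, from 3 weeks of age, a high-fat diet with 60% of its energy from fat for 8 weeks. The curcumin group was then gavaged with curcumin at 50 mg/kg for 28 days, and the diabetic group received vehicle by the same route and for the same time. The sources give the start of gavage both as week 7 and as after 11 weeks, and this was not resolved. The control group, 3 libraries from mice that received neither streptozotocin nor the high-fat diet, is given beside many of the results. For this group too the labels list 28 days of gavage. The remaining 2 libraries, from diabetic mice given aged garlic extract, entered the fit only through the shared estimate of the spread. Whether the numbered libraries of a group are separate animals is not stated, so each p-value reflects variation among libraries that could be technical replicates.

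Curcumin is the yellow polyphenol of turmeric. It is known for inducing the antioxidant programme of the transcription factor NRF2 and for restraining the inflammatory factor NF-kB in cultured cells. Streptozotocin kills pancreatic beta cells, and given to newborn rodents and followed by a fatty diet it models diabetes with insulin resistance. The hypothalamus holds the peptide neurons that control feeding, glucose output, stress and water balance, and it reads insulin and leptin directly. Its immediate early genes, such as Fos and Junb, are switched on within minutes of a neuron being stimulated.

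The libraries held between 12950017 and 30271706 counts in genes. Several libraries stood apart in ways the groups do not name. In curcumin replicate 2 several transcription factors and peptides that define the hypothalamus were near 0, while others were not. Nkx2-1, which specifies the ventral hypothalamus, was at 0.0497 CPM (counts scaled to a common library size) there against 47.7 and 35.3 CPM in the other curcumin libraries and 30.0 to 56.8 CPM in the diabetic libraries. Otp was at 0.199 CPM against 41.0 and 45.2 CPM, and vasopressin (Avp) at 0.348 CPM against 48.8 and 336 CPM, but Npy, at 25.9 CPM, was the highest of the 3 curcumin libraries. In that library 9 of 38 hypothalamic transcription factors had no count, and their sum was 304 CPM against 411 and 484 CPM. The summed level of 28 midbrain and habenula genes was 757 CPM, against 317 to 477 CPM in the other 6 libraries of the comparison. The library labelled curcumin replicate 2 thus went in part against its tissue label. Values without it are given beside many of the lists whose median then changed direction or moved by over 1.5 times, and for some single genes. Diabetes replicate 4 held anterior pituitary RNA: growth hormone (Gh) was at 732 CPM there and had no count in the other 3 diabetic libraries. Low values also differed. Genes with 1 to 9 counts numbered 1195 to 2194 in the diabetic libraries, 1961, 11886 and 1411 in curcumin replicates 1, 2 and 3, and 5278 to 15779 in the controls. Of the genes with 20 or more counts in every control library, 262 to 530 were at 0 in each diabetic library, 580, 30 and 288 in the curcumin libraries. A 0 in those libraries therefore does not carry the usual counting limit. No fold is given for single genes at 0, although the list medians include such genes.

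Of 78334 gene identifiers, 25562 passed the filter on low counts and were tested with edgeR's quasi-likelihood test. At a Benjamini-Hochberg adjusted p under 0.05, 23 genes passed (0.0900% of those tested). Of these 22 were lower with curcumin than in untreated diabetes (0.0861%) and 1 was higher (0.00391%). Among the 22 were 6 pseudogenes by name or annotation, most of them copies of ribosomal protein genes, and 4 genes with a provisional name, counts that can overlap. Curcumin and diabetic libraries did not overlap for 21 of the 22, against 4.19% of all genes tested with curcumin lower. The 22 were picked by their p in this same contrast, so their separation is not further evidence. The counts beside the controls that follow describe the same picked genes, and their shares over all genes are not given. In 15 of the 22 the curcumin libraries overlapped the controls and in 7 every curcumin library lay below every control. Every diabetic library lay above every control for 19. The lowest of the 3 curcumin libraries was replicate 1 for 19 of the 22.

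The smallest adjusted p belonged to Junb, an immediate early gene whose protein joins the AP-1 transcription factor. With curcumin Junb stood at 9.56, 19.6 and 25.4 CPM, and in the diabetic libraries at 74.9, 109, 67.6 and 100 CPM, with the controls at 20.8, 24.4 and 21.2 CPM. The groups did not overlap, and the curcumin values surrounded those of the controls. The log2 change was -2.27 ± 0.30 (SE, adjusted p = 0.00862). Fos, its partner in AP-1, was at 14.4, 16.8 and 40.6 CPM with curcumin and at 53.7, 97.0, 53.5 and 84.4 CPM in diabetes (controls 15.2 to 28.8 CPM). Its groups did not overlap either, but its log2 difference of -1.59 ± 0.36 missed the threshold (adjusted p = 0.0675). Fosb was at 2.79, 3.58 and 4.86 CPM against 16.9, 15.4, 11.3 and 5.43 CPM, with a log2 difference of -1.71 ± 0.49 (adjusted p = 0.118). Egr1, a zinc finger early gene, was at 37.9, 58.9 and 76.9 CPM against 88.5 to 123 CPM (log2 difference -0.86 ± 0.24, adjusted p = 0.113). Jund, at 31.5, 143 and 48.7 CPM against 144 to 298 CPM, differed by -1.42 ± 0.39 (adjusted p = 0.110). With curcumin replicate 2 left out it lay at -2.27 and passed (adjusted p = 0.000588).

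Across the 34 immediate early genes listed, 1 passed (Junb), and 12 had an unadjusted p under 0.05 toward lower values and none toward higher ones. Over all genes tested these shares were 6.71% lower and 10.5% higher, which are also the shares to set beside the lists that follow. The groups did not overlap for 9 of the 34, all with curcumin lower, where 4.19% of all genes tested had non-overlapping groups with curcumin lower and 5.43% with curcumin higher. The median log2 difference of the 34 was -0.61, against 0.07 over all genes. Their summed level was 361, 652 and 523 CPM with curcumin and 842, 1005, 1009 and 1020 CPM in diabetes, and 509 to 569 CPM in the controls. The sums did not overlap between curcumin and diabetes, and curcumin replicate 2 was the highest of its group.

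Many immediate early genes carry a cyclic AMP response element near the start of transcription, whose core is TGACG. The 250 bases upstream of the RefSeq start (GRCm38.p6) are shown for the AP-1 genes Junb, Fos and Fosb, which hold the core. They are printed 5′ to 3′ on the gene's strand, with TGACG in capitals. The promoter of Jund is not shown. The counts were made on GRCm39, so these coordinates serve only to locate the printed sequences. Junb lies on chr8:84978749-84978998, minus strand, with the core at position -106. Fos lies on chr12:85473640-85473889, plus strand, with cores at -129 and -66. Fosb lies on chr7:19310046-19310295, minus strand, with the core at -60.
Junb: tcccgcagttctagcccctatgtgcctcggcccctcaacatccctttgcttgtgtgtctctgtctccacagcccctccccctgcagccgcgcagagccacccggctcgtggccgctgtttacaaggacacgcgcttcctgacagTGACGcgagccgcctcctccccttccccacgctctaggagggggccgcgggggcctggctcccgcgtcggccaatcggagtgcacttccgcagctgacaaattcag
Fos: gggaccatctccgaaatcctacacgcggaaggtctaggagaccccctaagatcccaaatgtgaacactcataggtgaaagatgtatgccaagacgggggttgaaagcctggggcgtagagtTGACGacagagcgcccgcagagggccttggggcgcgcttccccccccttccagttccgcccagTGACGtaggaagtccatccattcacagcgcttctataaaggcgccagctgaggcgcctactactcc
Fosb: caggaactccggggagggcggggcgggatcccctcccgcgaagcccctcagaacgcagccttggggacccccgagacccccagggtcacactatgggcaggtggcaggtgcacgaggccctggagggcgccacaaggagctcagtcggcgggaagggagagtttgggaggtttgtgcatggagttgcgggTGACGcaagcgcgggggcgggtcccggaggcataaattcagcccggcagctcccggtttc
Searched on both strands, TGACG stood in the 250 bases of 17.8% of the 32851 promoters of the table. Of the 34 early genes 28 had a promoter there, with 41 promoters in all, of which 22 (53.7%) held the core. A match is a description of the letters, and no binding was measured.

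Ly6h, which encodes a small lipid-anchored protein of neurons that binds nicotinic acetylcholine receptors, fell with curcumin. It was at 251, 290 and 367 CPM with curcumin, at 1144, 866, 2203 and 1245 CPM in diabetes and at 455 to 508 CPM in the controls. All 3 curcumin libraries lay below every control, and the log2 change was -2.17 ± 0.30 (adjusted p = 0.00862). Bex1, an adaptor protein of neurons, was at 34.5, 61.4 and 46.6 CPM against 142, 117, 215 and 193 CPM, and its controls at 86.7 to 152 CPM. Curcumin was again below the controls, and the log2 change was -1.81 ± 0.31 (adjusted p = 0.0452). Nenf, which encodes the secreted neurotrophic protein neudesin, was at 34.5, 82.4 and 60.4 CPM against 174, 130, 321 and 282 CPM, with controls at 59.9 to 70.9 CPM. Its curcumin libraries fell on both sides of the controls, and the log2 change was -1.94 ± 0.35 (adjusted p = 0.0460). Tmem158, a membrane protein first described as induced by Ras signalling, was at 37.4, 61.4 and 52.7 CPM against 135, 100, 290 and 146 CPM (controls 92.9 to 98.2 CPM; log2 change -1.73 ± 0.30, adjusted p = 0.0452). Lbhd2 was at 13.4, 12.9 and 13.2 CPM against 37.9, 38.8, 74.8 and 62.2 CPM (controls 13.2 to 20.8 CPM; log2 change -2.02 ± 0.37, adjusted p = 0.0460). In the list of 18 BEX, neudesin and other small neuronal proteins, 3 passed (Ly6h, Bex1 and Nenf), all lower, and the median log2 difference was -0.69 (-1.22 without curcumin replicate 2). That list was assembled with earlier results of these libraries known and is not independent evidence of its direction.

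Genes of the cytoskeleton and of protein folding formed a second part of the calls. Tmsb10, which encodes a thymosin that holds actin monomers, was at 32.8, 123 and 54.4 CPM with curcumin and at 320, 220, 404 and 320 CPM in diabetes, and fell by a log2 change of -2.17 ± 0.41 (adjusted p = 0.0460). Tppp3, a tubulin polymerization-promoting protein, was at 125, 116 and 197 CPM against 361, 268, 590 and 414 CPM and changed by -1.48 ± 0.28 (adjusted p = 0.0489). Pfdn5, a subunit of the prefoldin chaperone that delivers actin and tubulin for folding, was at 78.1, 146 and 100 CPM against 363, 246, 373 and 406 CPM and changed by -1.68 ± 0.29 (adjusted p = 0.0452). None of these 3 had overlapping curcumin and diabetic libraries. Controls were at 131 to 206 CPM for Tmsb10, 148 to 176 CPM for Tppp3 and 112 to 171 CPM for Pfdn5. Every curcumin library lay below every control for Tmsb10, while curcumin and control ranges overlapped for Tppp3 and Pfdn5. Scand1, a SCAN domain protein, spread widely within the curcumin group, at 8.05, 71.0 and 35.5 CPM, against 236, 136, 481 and 209 CPM in diabetes and 41.6 to 57.2 CPM in the controls (log2 change -2.80 ± 0.52, adjusted p = 0.0460). Fam183b, a gene of ciliated ependymal cells, was at 1.28, 2.58 and 5.55 CPM against 15.8, 23.8, 19.4 and 26.4 CPM, and its controls at 10 to 14.8 CPM (log2 change -2.77 ± 0.47, adjusted p = 0.0452). Rps4l, annotated as a transcribed processed pseudogene of a ribosomal protein gene, was at 24.4, 33.4 and 39.1 CPM against 77.1 to 116 CPM (log2 change -1.55 ± 0.25, adjusted p = 0.0452). Reads of such copies and of their parent genes can be assigned to either, so its value is uncertain.

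**Figure D1:**
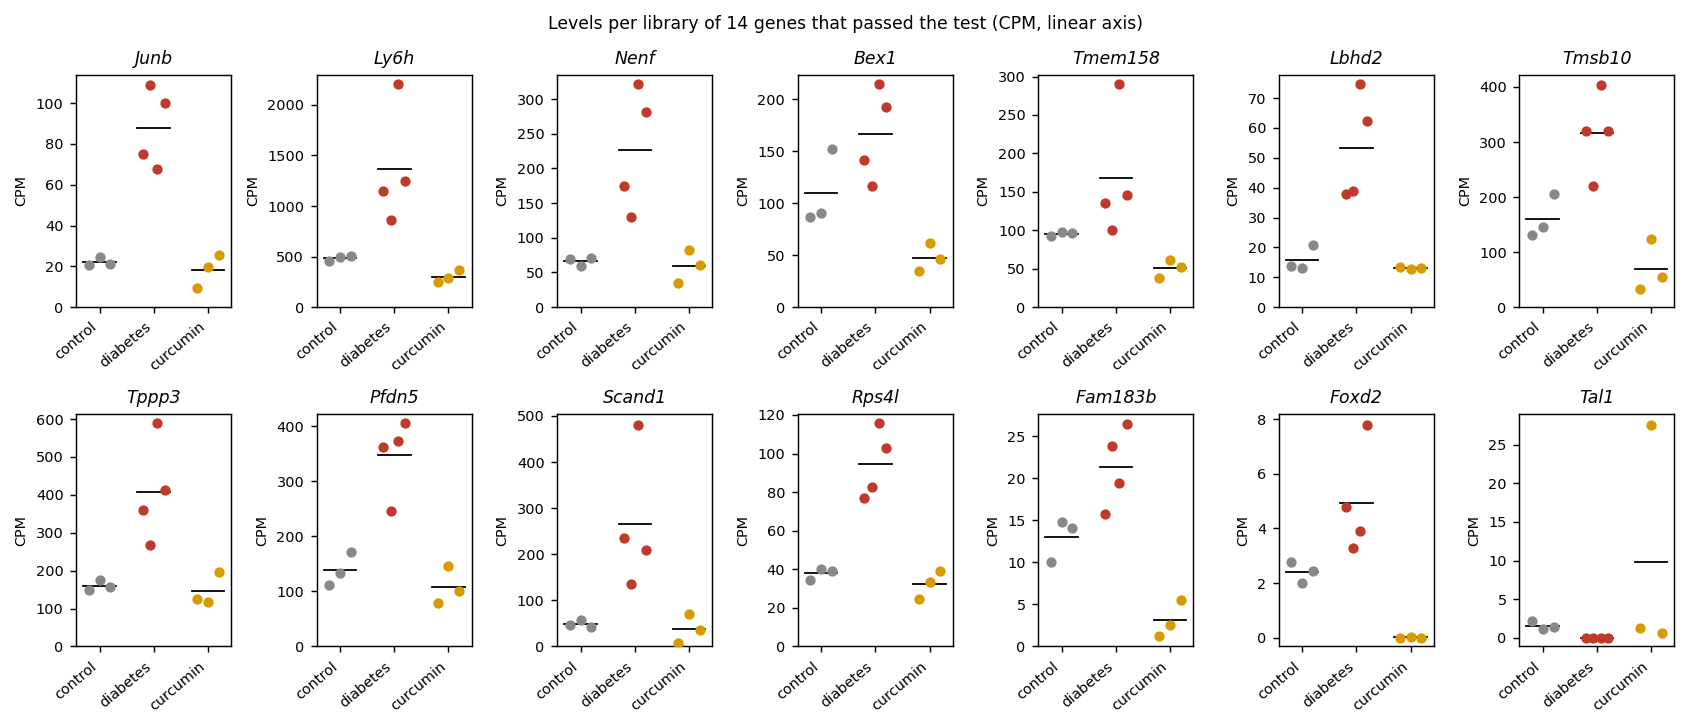
CPM (linear axis) of 14 genes that passed the test in the control (3), diabetes (4) and curcumin (3) libraries; points are libraries and lines are group means. For the 12 genes from Junb to Fam183b and for Foxd2 every curcumin library sits below every diabetic library, while Tal1 is at 0 in all diabetic libraries and high only in curcumin replicate 2.

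Foxd2 and Tal1, which also passed, are genes of transcription factors with counts at or near 0 in a group. The calls left unnamed include pseudogenes and genes with a provisional name. Foxd2, a forkhead factor, had 0, 1 and 0 counts in the curcumin libraries, 136, 58, 45 and 151 in the diabetic libraries and 66, 36 and 54 in the controls (adjusted p = 0.0452). The value thus rested on zeros in curcumin replicates 1 and 3 as well as on the library with few hypothalamic transcripts. Tal1, a helix-loop-helix factor of midbrain GABA neurons and of blood, was the single gene that rose: it had 28, 556 and 12 counts with curcumin, none in any diabetic library, and 53, 20 and 31 in the controls (adjusted p = 0.0452). Curcumin replicate 2 held most of its counts, and without that library the adjusted p was 0.0289. Gata3, a factor of the same midbrain neurons, had 0, 430 and 16 counts with curcumin and none in diabetes. In all, 31 genes had 10 or more counts in every curcumin library and none in any diabetic library, and 0 genes showed the reverse. The reverse needs a 0 in curcumin replicate 2, where zeros were rare. Of the genes with 20 or more counts in every control, 30 were at 0 there, against 262 to 530 in each diabetic library. These counts therefore cannot be set against each other or read as an effect of curcumin.

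No gene other than Tal1 passed toward higher values, but several neuronal genes lay close to the threshold. Hspa12a, an atypical member of the HSP70 family, was at 163, 122 and 114 CPM with curcumin and 69.1, 67.7, 55.8 and 51.9 CPM in diabetes, with controls at 91.9 to 134 CPM (log2 difference 1.12 ± 0.22, adjusted p = 0.0541). St8sia1, which makes the ganglioside GD3, was at 77.3, 44.7 and 75.8 CPM against 21.5 to 33.6 CPM (1.27 ± 0.25, adjusted p = 0.0541). Adcy1, a calcium-stimulated adenylyl cyclase of neurons, was at 93.9, 115 and 44.2 CPM against 34.0, 17.5, 26.5 and 17.8 CPM, with controls at 45.2 to 108 CPM (1.81 ± 0.38, adjusted p = 0.0548). For these 3 genes the curcumin libraries were above every diabetic library. Ptprb, the vascular endothelial tyrosine phosphatase, was at 52.7, 28.4 and 28.9 CPM against 4.79 to 17.4 CPM, and its controls at 10.1 to 13.5 CPM (1.90 ± 0.41, adjusted p = 0.0638). Atp2b2, a plasma membrane calcium pump, was at 442, 371 and 226 CPM against 108 to 197 CPM (1.20 ± 0.26, adjusted p = 0.0638). Thsd7a (1.49 ± 0.32, adjusted p = 0.0614) and Camk1d, a calmodulin-dependent kinase (1.16 ± 0.25, adjusted p = 0.0648), also differed in the upward direction without passing. On the lower side Nnat, which encodes the neuronal proteolipid neuronatin, was at 545, 384 and 699 CPM against 1028, 1454, 1550 and 2265 CPM (-1.54 ± 0.30, adjusted p = 0.0541). Calb2, the calcium-binding protein calretinin, was at 185, 195 and 252 CPM against 356 to 579 CPM (-1.18 ± 0.23, adjusted p = 0.0541), and Bex2 and Gadd45gip1 lay at -1.46 ± 0.29 (adjusted p = 0.0541) and -1.94 ± 0.37 (adjusted p = 0.0528). Use1, a SNARE protein of the endoplasmic reticulum, was at 50.4, 77.1 and 50.0 CPM against 117 to 179 CPM (-1.24 ± 0.25, adjusted p = 0.0541). Cgref1 was at 19.5, 27.2 and 30.0 CPM against 45.8 to 69.5 CPM (-1.26 ± 0.25, adjusted p = 0.0541) and the keratin gene Krt1 at 12.4, 10.1 and 12.9 CPM against 26.6 to 63.4 CPM (-1.71 ± 0.33, adjusted p = 0.0541). Sssca1 was at 4.78, 1.34 and 1.09 CPM with curcumin and listed at 0 in every diabetic library (adjusted p = 0.0638).

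NRF2 targets did not rise with curcumin at this threshold. None of 41 measured NRF2 antioxidant genes passed in either direction, 2 had an unadjusted p under 0.05 toward higher and 12 toward lower values, and the median log2 difference was -0.29 (-0.53 without curcumin replicate 2). Hmox1, which encodes heme oxygenase, was at 3.88, 6.11 and 0.892 CPM with curcumin and at 2.61, 2.42, 5.31 and 3.51 CPM in diabetes, a log2 difference of 0.07 ± 0.72 (adjusted p = 0.980) whose sign changed with the setting (from -0.79 upward). The groups overlapped, as they did for Nqo1, a quinone reductase (-0.26 ± 0.55, adjusted p = 0.885). Gclc, the catalytic subunit of the rate-limiting enzyme of glutathione synthesis, was at 62.2, 56.3 and 62.3 CPM against 47.8, 37.8, 42.0 and 45.3 CPM, which did not overlap, yet its log2 difference of 0.48 ± 0.20 did not pass (adjusted p = 0.242). Its partner Gclm differed by 0.37 (adjusted p = 0.440), Txnrd1 (thioredoxin reductase) by 0.21 (adjusted p = 0.672) and Srxn1 (sulfiredoxin) by 0.24 (adjusted p = 0.660). The 2 members of smallest p encode enzymes that remove reactive oxygen. Sod1, the cytosolic superoxide dismutase, was at 90.3, 223 and 166 CPM against 256, 275, 395 and 418 CPM (-1.07 ± 0.29, adjusted p = 0.108). Gpx4, which reduces lipid peroxides, was at 22.5, 70.6 and 30.7 CPM against 66.9 to 110 CPM (-1.18 ± 0.34, adjusted p = 0.124). DESeq2 called 4 of the 41, all lower.

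Inflammatory genes also gave no call. Of 39 measured NF-kB and cytokine genes 0 passed, with 3 higher and 1 lower at an unadjusted p under 0.05. Their median log2 difference was 0.03, which was 0.32 without diabetes replicate 4 and 0.01 without curcumin replicate 2. Nfkb1, a subunit of NF-kB, was at 40, 28.0 and 32.0 CPM against 11.1, 30.9, 19.8 and 23.9 CPM (0.64 ± 0.29, adjusted p = 0.275). Rela, the other main subunit, was at 15.2, 40.1 and 32.3 CPM against 25.9 to 35.9 CPM (-0.17 ± 0.29, adjusted p = 0.844), and the inhibitor Nfkbia differed by -0.54 (adjusted p = 0.455). Tnf and Il1b had no count in any of the 7 libraries and Il6 had 3 counts in 1 of them, so these cytokines could not be compared. Among 30 ER stress genes 0 passed, with 2 higher and 3 lower at the unadjusted level. Their median was -0.06 (-0.20 without diabetes replicate 2 and -0.16 without curcumin replicate 2). Among 16 heat shock genes 0 passed, with 2 lower at the unadjusted level and a median of -0.17 (-0.29 without curcumin replicate 2). DESeq2 called 1 of the 39 inflammatory genes, higher, and 0 in the stress lists. In edgeR's fit without curcumin replicate 2 the cytokine gene Il18 passed, lower (-1.05, adjusted p = 0.0488). Of the ER stress genes Atf4 then passed lower (-1.26, adjusted p = 0.00445) and Atf6 higher (0.94, adjusted p = 0.044).

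No nuclear-encoded subunit of the respiratory chain passed. Complex I passes electrons from NADH into the chain and complexes II to V carry them to oxygen and make ATP. All 36 complex I subunits tested had a log2 difference under 0, with a median of -0.91, and 22 had an unadjusted p under 0.05. For complexes II to V 40 of 42 were under 0, with a median of -0.76 and 22 at an unadjusted p under 0.05. Without curcumin replicate 2 the medians were -1.41 and -1.26, and without curcumin replicate 1 they were -0.57 and -0.42. The complex I sum was 1587, 4815 and 2533 CPM with curcumin, 4936, 4036, 6599 and 6165 CPM in diabetes and 2886 to 3048 CPM in the controls. Curcumin replicate 2 lay within the diabetic range and the other curcumin libraries lay below the controls. For complexes II to V the sums were 4687, 11687 and 6342 CPM against 11452, 8538, 14143 and 12733 CPM, and replicate 2 again lay within the diabetic range. Ndufa11, an accessory subunit of complex I, was at 64.8, 131 and 85.8 CPM against 221, 182, 271 and 246 CPM (-1.29 ± 0.26, adjusted p = 0.0541), and Ndufb2 at 34.7, 76.6 and 55.2 CPM against 105 to 170 CPM (-1.29 ± 0.27, adjusted p = 0.0548). The 13 subunits encoded by the mitochondrial genome had a median of 0.01 and none passed. Without curcumin replicate 2 their median was -0.28, with 11 of 13 below 0, and mt-Nd3 passed at -1.39 (adjusted p = 0.0102). Their sum was 31830, 56195 and 34669 CPM against 39561, 48084, 30468 and 41653 CPM, which overlapped.

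Of 34 small subunit proteins 1 passed, the pseudogene Rps4l, while 24 had an unadjusted p under 0.05, all lower, and the median was -1.01. Of 47 large subunit proteins 0 passed and 22 had an unadjusted p under 0.05, all lower, with a median of -0.82. Their libraries did not overlap for 18 of 34 and 17 of 47, with curcumin lower each time, against 4.19% of all genes tested. The small subunit sum was 1627, 2620 and 2207 CPM with curcumin against 4330, 3530, 5504 and 5456 CPM, and 2027 to 2697 CPM in the controls. All 3 curcumin libraries lay below the diabetic ones, and replicates 2 and 3 lay within the range of the controls. Rps15 was at 85.3, 322 and 175 CPM against 590, 458, 844 and 830 CPM (-1.81 ± 0.36, adjusted p = 0.0541) and the stalk protein Rplp1 at 96.0, 289 and 205 CPM against 429 to 895 CPM (-1.72 ± 0.35, adjusted p = 0.0541). Ribosomal protein genes have many near-identical pseudogene copies, and how reads matching several places were counted is not given in the sources used here.

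The proteasome, which degrades tagged proteins, had 33 subunits measured, of which 0 passed and 16 had an unadjusted p under 0.05, all lower (median -0.48, or -0.74 without curcumin replicate 2). Psmb6, a catalytic subunit, was at 83.4, 152 and 108 CPM against 220, 197, 340 and 269 CPM (-1.16 ± 0.26, adjusted p = 0.0648). The proteasome sum was 2416, 3824 and 2832 CPM against 4326, 3681, 5068 and 4510 CPM, so that curcumin replicate 2 overlapped diabetes. Among 14 prefoldin and chaperonin subunits Pfdn5 passed and 6 had an unadjusted p under 0.05 (median -0.40). Among 19 tubulin and actin binding small proteins Tmsb10 and Tppp3 passed (median -0.50, or -0.31 without curcumin replicate 1).

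**Figure D2:**
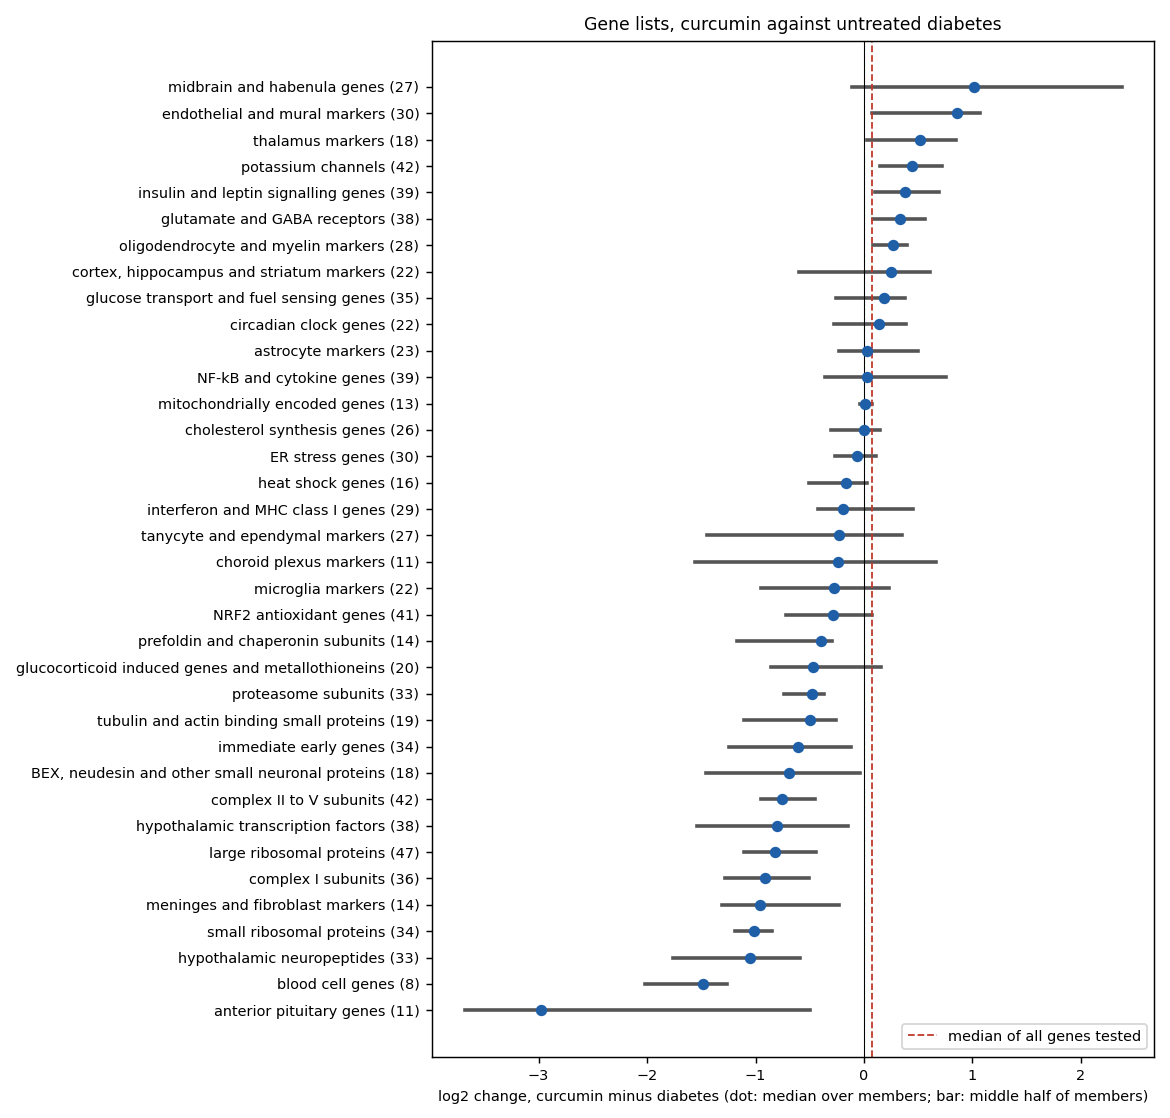
Log2 difference, curcumin minus diabetes, over the tested members of 36 gene lists (number of members in parentheses); dots are medians, bars span the middle 50% of members, and the dashed line is the median of all genes tested, 0.07. Anterior pituitary genes lie furthest left (-2.98) and midbrain and habenula genes furthest right (1.01). Ribosomal, respiratory chain, peptide and blood cell lists also lie to the left, and potassium channels, insulin signalling and endothelial markers to the right.

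Of 42 potassium channel genes 37 had a log2 difference above 0 and 13 an unadjusted p under 0.05 toward higher values, against 1 toward lower. None passed the adjusted threshold, and the median was 0.44, or 0.17 with a correction for transcript length and 0.27 without both libraries that stood apart. The summed level was 4011, 4189 and 2938 CPM with curcumin and 2746, 2484, 2508 and 2372 CPM in diabetes, with controls at 2552 to 3507 CPM, and here curcumin replicate 2 was the highest. Kcnk9, a two-pore leak channel, was at 156, 120 and 119 CPM against 79.2, 77.6, 59.2 and 77.7 CPM, with controls at 87.2 to 150 CPM (0.84 ± 0.23, adjusted p = 0.109). Kcnq3, a subunit of the M-current, was at 133, 60.9 and 65.0 CPM against 38.0 to 51.1 CPM (0.96 ± 0.27, adjusted p = 0.116). Of 38 glutamate and GABA receptor genes 30 were above 0 and 11 had an unadjusted p under 0.05, all higher, with a median of 0.33 and 0 passing. Their median was 0.07 with the length correction, with 22 of 38 above 0, and 0.18 without curcumin replicate 1. Gabbr2, a subunit of the metabotropic GABA receptor, was at 285, 160 and 147 CPM against 123, 97.0, 80.0 and 109 CPM (0.95 ± 0.27, adjusted p = 0.121). Gabrb2, a subunit of the GABA-gated chloride channel, was at 63.2, 19.6 and 19.3 CPM against 1.40 to 15 CPM (2.40 ± 0.76, adjusted p = 0.151).

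Insulin and leptin signalling genes, 39 in number, had a median of 0.38, with 31 above 0, and of 0.20 without curcumin replicate 1. None passed; 13 had an unadjusted p under 0.05 with curcumin higher and 0 with curcumin lower. The insulin receptor gene Insr was at 89.8, 38.8 and 49.3 CPM with curcumin and 37.8, 42.4, 29.3 and 29.2 CPM in diabetes, with controls at 45.7 to 60.5 CPM (0.77 ± 0.27, adjusted p = 0.176), and curcumin replicate 2 fell within the diabetic range. Igf1r, the receptor of insulin-like growth factor, was at 99.3, 48.0 and 82.7 CPM against 30.8 to 50.5 CPM (1.01 ± 0.30, adjusted p = 0.135). Pik3cb, a catalytic subunit of PI3 kinase, was at 44.6, 34.3 and 26.7 CPM against 14.2 to 21.3 CPM (1.05 ± 0.28, adjusted p = 0.105). Lepr, the leptin receptor, was at 15, 2.43 and 1.78 CPM against 2.05 to 3.93 CPM: its high value stood in curcumin replicate 1, and the log2 difference of 1.13 ± 0.73 (adjusted p = 0.472) became -0.47 without that library. Glucose transport and fuel sensing genes (35) had 0 calls, 3 higher and 1 lower at an unadjusted p under 0.05 and a median of 0.18. Cholesterol synthesis genes (26) had 0 calls, 3 lower at that level and a median of 0.00, and circadian clock genes (22) 0 calls, 5 higher and a median of 0.13.

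Hypothalamic peptides gave no call, and 15 of 33 measured had an unadjusted p under 0.05 toward lower values and 1 toward higher (median -1.05). In bulk tissue, fewer cells of a type and less RNA per cell cannot be told apart, and neither can a different cut of tissue. Cartpt, a peptide that curbs feeding, was at 64.8, 21.8 and 171 CPM with curcumin and at 295, 322, 516 and 434 CPM in diabetes, with controls at 84.0 to 118 CPM (-2.19 ± 0.48, adjusted p = 0.0638). Pomc, the precursor of the satiety peptide alpha-MSH and also a pituitary hormone gene, was at 41.6, 3.87 and 75.1 CPM against 171, 238, 343 and 1089 CPM, and its controls at 50.3 to 68.7 CPM (-3.52 ± 0.85, adjusted p = 0.0864). The highest diabetic value stood in replicate 4, which held pituitary RNA, and the lowest curcumin value in replicate 2. Nts, which encodes neurotensin, was at 10.4, 4.57 and 16.7 CPM against 26.9 to 42.0 CPM (-1.76 ± 0.37, adjusted p = 0.0594). Agrp, the hunger peptide, had 0, 8 and 27 counts with curcumin, none in any diabetic library and 7 to 37 in the controls. Npy, its companion peptide, was at 4.31, 25.9 and 6.94 CPM against 11.9 to 46.0 CPM (-1.15 ± 0.62, adjusted p = 0.359). Without curcumin replicate 2 Npy lay at -2.25 and passed (adjusted p = 0.0408). The summed peptide level was 1316, 1185 and 2548 CPM against 3971, 5088, 4983 and 6507 CPM, with controls at 2774 to 3346 CPM. Of 38 hypothalamic transcription factors 1 passed (Foxd2) and the median was -0.81, which was -0.38 without curcumin replicate 2 and -1.40 without curcumin replicate 3. Without replicate 2, 27 lay below 0 and 5 passed, all lower. The factors had sums of 411, 304 and 484 CPM against 632 to 644 CPM and 489 to 536 CPM in the controls. All 3 curcumin libraries lay below the diabetic libraries in both sums.

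**Figure D3:**
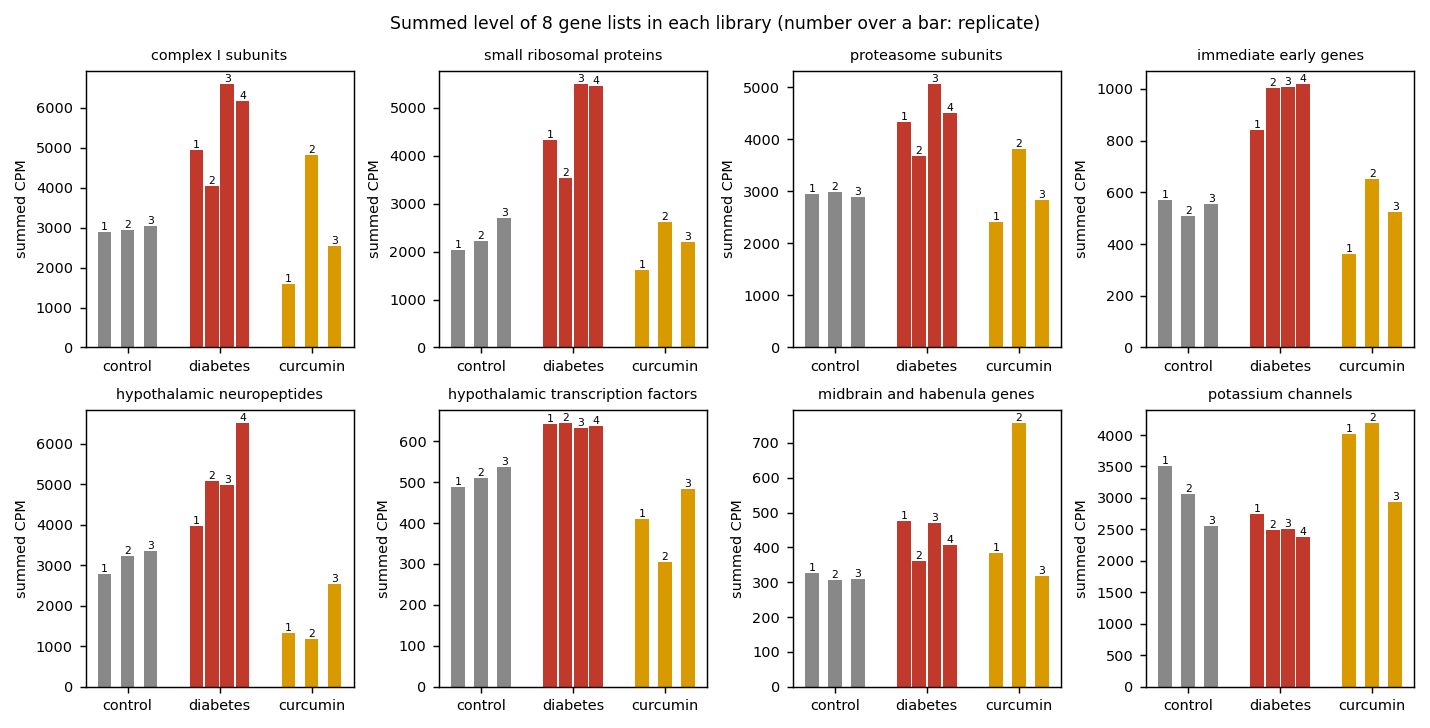
Summed CPM (bars from 0) of 8 gene lists in each control, diabetes and curcumin library, with the replicate number above each bar. Early gene sums reach at most 652 CPM with curcumin and at least 842 CPM in diabetes, and curcumin replicate 2 stands apart in complex I (4815 CPM) and in midbrain and habenula genes (757 CPM).

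Markers of other cell types were tested in the same fit. Of 30 endothelial and mural markers 9 had an unadjusted p under 0.05 toward higher values and 0 toward lower, with a median of 0.86, 0 calls and sums of 1362, 2213 and 1177 CPM against 1104, 1371, 1415 and 1927 CPM. Flt1, a receptor of vascular endothelial growth factor, was at 61.0, 66.0 and 21.9 CPM against 5.31 to 23.9 CPM (1.87 ± 0.43, adjusted p = 0.0755), and the blood-brain barrier transporter Slco1a4 at 34.8, 59.6 and 28.5 CPM against 8.53 to 23.6 CPM (1.37 ± 0.37, adjusted p = 0.106). The sums overlapped between the groups, as did Flt1. Without curcumin replicate 2 the median of the list was 0.42, and 2 members passed higher and 2 lower. Of 23 astrocyte markers 0 passed, with 1 higher and 1 lower at an unadjusted p under 0.05 (median 0.03, or -0.22 without curcumin replicate 2), and Gfap differed by -0.35 (adjusted p = 0.683). Of 22 microglia markers 0 passed and 6 had an unadjusted p under 0.05 toward lower values. Their median was -0.28, and 0.01 without diabetes replicate 4, 0.00 without diabetes replicate 2 and -0.52 without diabetes replicate 1. Cst3, which encodes cystatin C, was at 981, 2076 and 1392 CPM against 2047 to 4105 CPM (-1.07 ± 0.32, adjusted p = 0.128), while Sall1, a microglial transcription factor, was at 36.5, 20.5 and 19.1 CPM against 9.15 to 12.1 CPM (1.30 ± 0.35, adjusted p = 0.104). Aif1 differed by -0.49 (adjusted p = 0.802). Oligodendrocyte and myelin markers (28) had 0 calls, 5 higher at an unadjusted p under 0.05 and a median of 0.27, with a sum of 14440 CPM in curcumin replicate 2 against 5548 to 8223 CPM in the other 6 libraries; the median was -0.18 without that replicate and 0.44 to 0.48 without curcumin replicate 1 or 3 or diabetes replicate 1. Of 27 tanycyte and ependymal markers Fam183b and Tppp3 passed, both lower. Their median was -0.23, changed sign to 0.22 without diabetes replicate 4, and lay between -0.57 and -0.43 without diabetes replicate 1 or 3 or curcumin replicate 1 or 3. Midbrain and habenula genes (27) had a median of 1.01 with curcumin replicate 2 and -0.40 without it. Blood cell genes (8) had a median of -1.48 and sums of 166, 596 and 183 CPM against 340, 528, 475 and 1828 CPM. That median was -0.76 without diabetes replicate 4 and -2.37 without curcumin replicate 2, where 4 of the 8 passed, all lower. Anterior pituitary genes (11) had a median of -2.98, which was -0.40 without diabetes replicate 4 and -1.86 without diabetes replicate 2. Of the 18 listed, 12, 9 and 11 had no count in curcumin replicates 1, 2 and 3, so the size of this median is uncertain. It was -0.85 with limma-voom and -0.78 with no low-count filter. Meningeal and fibroblast markers (14) had a median of -0.96, which became 0.18 without diabetes replicate 4, -1.53 without curcumin replicate 2 and -0.53 without curcumin replicate 1. The part of these cell types in the other results was not tested.

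A further 5 lists held 0 calls. At an unadjusted p under 0.05, 4 of 20 glucocorticoid induced genes and metallothioneins were lower (median -0.47, or -0.72 without curcumin replicate 2), with Cebpb, a factor of the acute phase response, at -1.61 ± 0.41 (adjusted p = 0.0957). For 29 interferon and MHC class I genes 2 were higher and 2 lower (median -0.19), for 18 thalamus markers 5 and 2 (0.52), for 22 cortex, hippocampus and striatum markers 3 and 1 (0.24) and for 11 choroid plexus markers 2 and 0 (-0.24). Without curcumin replicate 2 the thalamus median was 0.32, that of cortex, hippocampus and striatum markers 0.08 and that of choroid plexus 0.14. In that fit 3 thalamus markers passed, all lower. On the higher side, 1 cortex, hippocampus and striatum marker and 2 choroid plexus markers passed, and 0 thalamus markers did. The cortical median ranged from -0.01 to 0.48, that of choroid plexus from -0.44 to 0.14 and that of interferon genes from -0.34 to -0.03 when 1 library was left out.

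The difference between the groups moved with transcript length. Among the 21 genes that fell and have an annotated length, 16 (76.2%) have transcripts under 1000 bases, against 37.8% of all genes tested. Genes under 500 bases had a median log2 difference of -0.48 (n = 1659) and genes of 4000 bases or more 0.42 (n = 1479). The share of counts in genes with transcripts under 1000 bases was 36.8, 41.9 and 40.2% with curcumin, 44.6, 44.2, 46.2 and 47.1% in diabetes and 38.9, 40.1 and 41.0% in the controls. Curcumin and diabetes did not overlap, at 39.6 ± 2.6% (SD, n = 3) and 45.5 ± 1.4% (SD, n = 4), with p = 0.0571 in a two-sided exact permutation test, the smallest that 3 against 4 libraries allow. Of the complex I subunits 91.7% and of the small ribosomal proteins 97.1% are under 1000 bases, of the potassium channels 9.5% and of the immediate early genes 17.6%. With a correction for length in each library the median of complex I was -0.80, that of small ribosomal proteins -0.81, that of immediate early genes -0.82 and that of hypothalamic peptides -1.05. The same correction brought the median of potassium channels to 0.17 and that of glutamate and GABA receptors to 0.07, so the values of both lists moved by over 1.5 times.

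**Figure D4:**
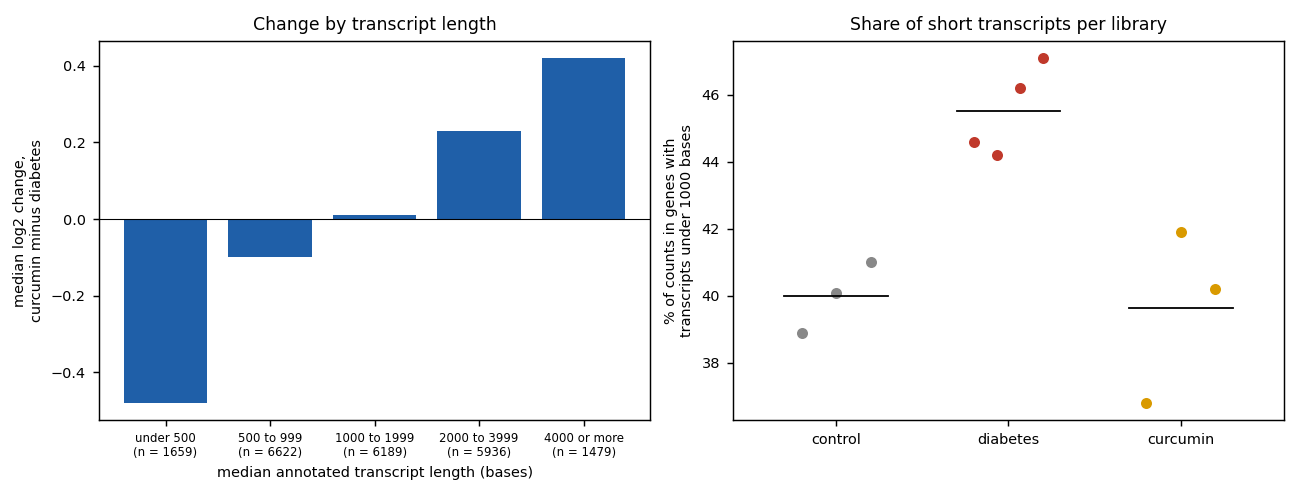
Left, median log2 difference (curcumin minus diabetes) of genes in 5 bins of median annotated transcript length, from -0.48 under 500 bases to 0.42 at 4000 bases or more. Right, share of each library's counts (axis not from 0) in genes with transcripts under 1000 bases, with points for libraries and lines for group means; the diabetic libraries (44.2 to 47.1%) sit above all control and curcumin libraries.

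The number of calls depended on curcumin replicate 2 and on the fit. Without that library 1975 genes passed edgeR's adjusted threshold, 754 higher (2.97% of those tested) and 1221 lower (4.82%), and all 23 genes above were among them. With 2 curcumin libraries left, these calls rest on replicates 1 and 3. In that fit 26 of 36 complex I subunits passed, all lower, with 25 of 42 subunits of complexes II to V, 14 of 34 small and 13 of 47 large ribosomal proteins and 14 of 33 proteasome subunits. Gpx4 (-1.77, adjusted p = 0.00258) and Sod1 (-1.35, adjusted p = 0.0106) were 2 of 8 NRF2 genes that passed, all lower. Among immediate early genes 6 of 33 passed, Fos with -1.36 (adjusted p = 0.0409), and among hypothalamic peptides 11 of 33, with Cartpt at -1.69 (adjusted p = 0.0121), all lower. Potassium channels (8 of 42), glutamate and GABA receptors (7 of 38) and insulin and leptin signalling genes (7 of 39) passed only toward higher values, with Kcnk9 at 0.94 (adjusted p = 0.0242) and Insr at 1.03 (adjusted p = 0.0216). Without curcumin replicate 1, by contrast, 1 gene passed. Fitted on the 7 libraries alone, 0 genes passed edgeR's threshold (smallest adjusted p = 0.16), while 1172 had an unadjusted p under 0.05 toward higher and 1223 toward lower values, and DESeq2 on the 12 libraries called 1044, 384 higher (1.50%) and 660 lower (2.58%). DESeq2's calls held 14 of 36 complex I subunits, 15 of 34 small ribosomal proteins, 9 of 33 peptides and 8 of 34 early genes, all lower, and 3 of 42 potassium channels, 3 of 30 endothelial markers and 1 of 39 insulin and leptin signalling genes, all higher. Junb passed in 16 of 17 alternatives and in all 7 that left out a library of the comparison, and Ly6h in 15 and 6.

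**Figure D5:**
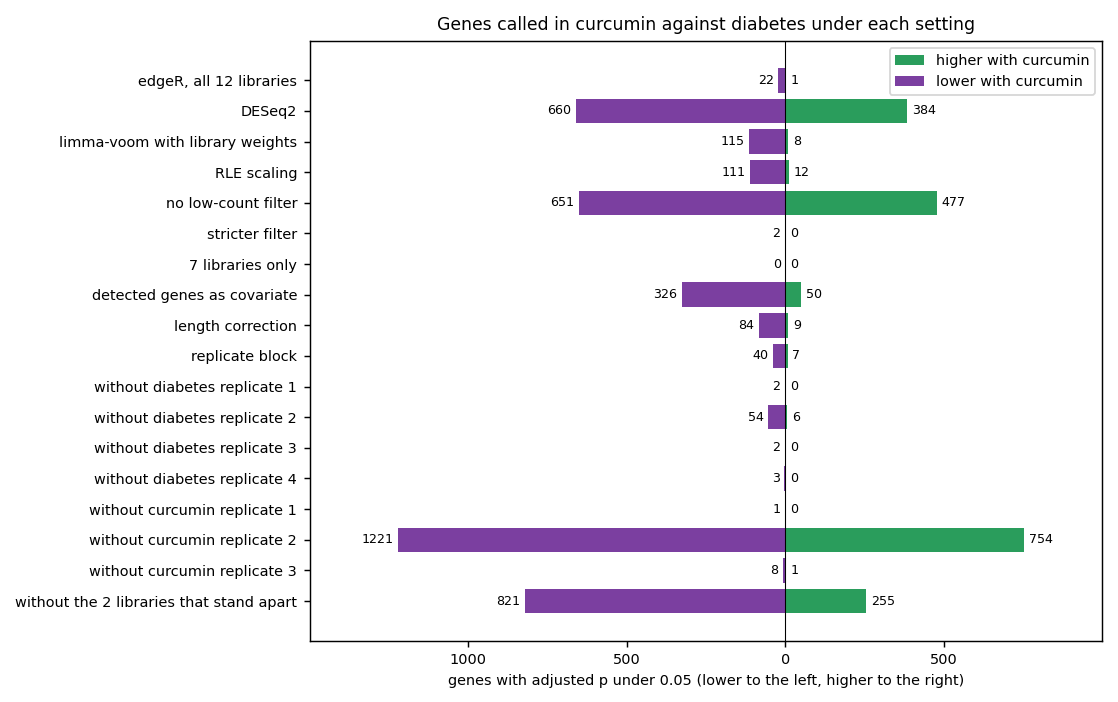
Number of genes with an adjusted p under 0.05 in each setting, lower with curcumin to the left and higher to the right of 0. The count runs from 0 with the 7 libraries alone to 1975 without curcumin replicate 2, against 23 in edgeR's fit of all 12 libraries.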

How the data were processed

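Hypothalamic RNA-seq was analysed from the deposited table of raw counts per gene. The authors made the counts with featureCounts on GRCm39 after FastQC, per the submitters' processing notes. Aligner, annotation release, strandedness and multi-mapping rules are not given in the sources used. Columns were matched to samples by the labels. Symbols, biotypes and median transcript lengths came from GENCODE M21, which named 65.7% of 78334 identifiers, carrying 97.8% of the counts. No pair of libraries agreed within sampling noise (lowest chi-square per degree of freedom 22.4).

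Counts were fitted with edgeR 4.0.16 (R 4.3.3): filterByExpr by group, TMM scaling, glmQLFit and glmQLFTest on group means of all 12 libraries, contrast curcumin minus diabetes, Benjamini-Hochberg over 25562 genes, threshold 0.05 with no minimum fold. The groups therefore shared 1 estimate of the spread. CPM values are TMM-scaled, and the SE is the log2 change divided by the root of F. Levels are not length-corrected and are compared between libraries, not between genes. The procedure was tested on simulated data.

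Genes named are those called with a symbol that is neither a pseudogene nor a Gm, Rik or accession name (at least 1 CPM on average), the 8 of smallest p on each side among the rest, called members and the 2 members of smallest p of each list, and a fixed set of NRF2, NF-kB, early, peptide and receptor genes. From the lists some were given by counts only. Others (Nkx2-1, Otp, Avp, Gh, Gata3, Fosb, Jund and further examples) were named after their values were seen. Members and lists were chosen with earlier results of these data known, and lists were given no test. Some genes are not reported here. Alternatives used DESeq2 1.42.0, limma 3.58.1 (voom with library weights), RLE scaling, other filters, the 7 libraries alone, a detected-gene covariate, length correction, a replicate block and leaving out each library. Leaving out both libraries that stood apart was chosen after seeing the data.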

Additional observations from a re-analysis of the deposited data

Results flagged for a closer look

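Within the 4 diabetic libraries, 96 genes were tested for a library that lay far from the other 3, and 5 showed one. Such a test flags about 1 in 20 by chance, but some of the genes, Gh among them, were named after their values were seen. The number flagged therefore cannot be set against that share. Of these, 3 stood in diabetes replicate 4: growth hormone (Gh) at 732 CPM, the glycoprotein hormone subunit Cga at 19.4 CPM and the beta-globin gene Hbb-bs at 528 CPM. Rela was lowest in diabetes replicate 1, at 25.9 CPM, and Kcnk9 was lowest in diabetes replicate 3, at 59.2 CPM.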

How the results depend on the processing

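Against 23 calls (1 higher, 22 lower), DESeq2 gave 1044 (384 and 660), limma-voom 123 (8 and 115), RLE scaling 123 (12 and 111), no low-count filter 1128 (477 and 651), the stricter filter 2 (0 and 2), the 7 libraries alone 0 (0 and 0), the detected-gene covariate 376 (50 and 326), length correction 93 (9 and 84) and, without both libraries that stood apart, 1076 (255 and 821). Leaving out 1 library gave 1 to 1975 calls (0 to 754 higher, 1 to 1221 lower): 2 without diabetes replicate 1, 60 without 2, 2 without 3 and 3 without 4, and 1, 1975 and 9 without curcumin replicates 1, 2 and 3. The cause was not tested. The replicate number as a block gave 47 calls (7 and 40). Same-numbered libraries had correlations of 0.058, -0.131 and -0.056 over genes, and the other pairs ranged from -0.093 to 0.138. So few pairs cannot show whether the numbers pair the libraries. All 23 calls kept their direction wherever tested. Detected genes at equal depth differed by 3171.4 (361.7 with a minimum of 10 counts); 3 against 4 libraries cannot go below an exact permutation p of 0.0571, so that test (p = 0.171 and 0.914) sets no limit. Signs reversed for Hmox1 (-0.79 limma-voom, -0.28 covariate, -0.15 replicate block, -0.53 without both libraries, -0.50 to 0.53 leaving out 1), Txnrd1 (-0.04, length correction) and, leaving out 1 library, Nqo1 (-0.71 to 0.11), Rela (-0.43 to 0.14), Lepr (-0.47 to 1.57) and Aif1 (up to 0.04).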
